A study of Mus musculus with 4 samples.

Results

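The genes described here encode the factors that start and extend protein synthesis in the cytoplasm of the mouse oocyte. They were chosen by symbol alone, as genes named Eif1 to Eif5 or Eef1 and Eef2, without the eIF2 kinases (Eif2ak), the eIF4E-binding proteins (Eif4ebp), Eif4enif1, the Argonaute genes under their older Eif2c names and pseudogenes. The rule gave 53 of the 23235 genes in the table and uses no measured value, though the set was picked for study with earlier results of these data known. Of these, 49 reached 1 FPKM in at least 1 library, beside 50.8% of all genes, and are called measured below. FPKM scales a gene's fragments by its length and by the size of the library.

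Oocytes were compared with and without deletion of Dcaf13, whose nucleolar product takes part in processing ribosomal RNA and also links substrates to the ubiquitin ligase CRL4. The study had 4 groups on a C57B6 background: growing oocytes of either genotype from mice 14 days old, and fully grown oocytes of either genotype from mice 23 days old, 48 h after 5 IU of PMSG, a gonadotropin that drives follicle growth. Every group carried floxed Dcaf13 alleles (Dcaf13fl/fl), and the deletion groups carried Gdf9-Cre in addition, a transgene whose Gdf9 promoter drives Cre recombinase in the oocyte. The labels of the controls name no Cre. Each group was 1 library of 10 pooled oocytes, and how many mice they came from is not given in the sources used here, so no difference below has an estimate of error and none was tested. Stage, age and PMSG cannot be told apart.

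Initiation begins when eIF2 brings the initiator tRNA to the small ribosomal subunit, helped by eIF1, eIF1A, eIF3 and eIF5. The eIF4F complex, made of the cap-binding eIF4E, the scaffold eIF4G and the helicase eIF4A, brings the mRNA, and eIF5B joins the large subunit. eIF2B recharges eIF2 with GTP and is the step blocked when stress kinases phosphorylate eIF2. Elongation needs eEF1A, which delivers aminoacyl-tRNA, its exchange complex eEF1B, and eEF2, which moves the ribosome along. Growing oocytes translate actively and store mRNA for later use. Several of these genes carry a 5′ terminal oligopyrimidine (TOP) tract, a run of C and T at the very start of the mRNA through which mTOR signalling controls translation of ribosomal proteins and elongation factors.

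Because of that tract, the letters around the annotated starts were searched for runs of C and T. A start was found in RefSeq (GRCm38.p6) for 42 of the 53 genes, and the window spans 30 bases, 15 before and 15 from the start on, 5′ to 3′ on the gene's strand. The 7 genes with a run of 10 or more are shown first, then 3 genes that the results below turn on, with the longest run of C and T in capitals.
Eif2b5: CCTTCCTCTTTCTCTCCCTgcaactacacc
Eif2s3x: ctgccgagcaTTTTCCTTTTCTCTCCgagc
Eif3f: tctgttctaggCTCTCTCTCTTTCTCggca
Eif2s3y: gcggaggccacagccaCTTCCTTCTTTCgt
Eef1a1: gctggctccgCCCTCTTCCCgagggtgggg
Eif3l: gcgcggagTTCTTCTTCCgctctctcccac
Eif4e: tcgCCCCCCCTTCaggagcggttgtgcgat
Eif4h: gtgcgaCTTgcgatcaggcagcgcggcgga
Eef1b2: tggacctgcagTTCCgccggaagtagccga
Eef2: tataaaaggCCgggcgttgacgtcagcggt

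These windows lie at chr16:20498802-20498831 (plus strand) for Eif2b5, chrX:94212637-94212666 (minus) for Eif2s3x, chr7:108934400-108934429 (plus) for Eif3f, chrY:1010580-1010609 (plus) for Eif2s3y and chr9:78481710-78481739 (minus) for Eef1a1. The others lie at chr15:79075208-79075237 (plus) for Eif3l, chr3:138527253-138527282 (plus) for Eif4e, chr5:134639395-134639424 (minus) for Eif4h, chr1:63176816-63176845 (plus) for Eef1b2 and chr10:81176616-81176645 (plus) for Eef2. A run of 10 or more was found for 16.7% of the 42 genes, against 6.25% of all 27022 genes with a start and 6.75% of those measured here. The longest run, 19 bases, is that of Eif2b5, and most of it lies before the annotated start. The run of Eif4e lies wholly before its start. Runs were counted anywhere in the window, so a run here is not by itself a TOP tract. Eef1b2 and Eef2, both known TOP genes, have runs of 4 and 2 in these windows, and the annotated starts may not be those used in oocytes. The 6 measured genes with a run had a median change of 0.21 in growing and 0.06 in fully grown deletion oocytes against control, and the 33 measured genes without one 0.16 and 0.09, as differences of log2(FPKM + 1).

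The libraries were close to each other in depth, and markers of other cell types were low beside those of the oocyte but differed between libraries. Judged by what 1 read is worth among low values, depth was 1.04 times that of the growing control for the growing deletion library, and 1 and 1.10 times for the fully grown pair, control first. The 18 oocyte markers had medians of 1671 to 1740 FPKM. Markers of granulosa cells, the support cells around the oocyte, had their lowest sum in growing deletion oocytes. Their median was lowest in fully grown control, at 0.44 FPKM beside 0.58 in growing deletion oocytes. The 12 markers summed to 36.0 FPKM in growing control and 18.6 in growing deletion oocytes, and to 29.1 and 31.5 in the fully grown pair; Cyp19a1 held 17.7, 7.75, 19.0 and 16.8 of these. Between 4 and 6 of them reached 1 FPKM, Inhba was at 0 in growing deletion, Amh and Foxl2 in fully grown control and Amh in fully grown deletion, and their part in the results below was not tested. The 6 markers of theca or stroma summed to at most 0.425 FPKM and the 4 of blood cells to 1.78, 3.56, 1.06 and 1.44, nearly all of it Cd68. Dcaf13 itself stood at 38.9 FPKM against 96.1 in control at the growing stage and at 64.0 against 160.2 at the fully grown stage. These are 40.5% and 39.95% of control, for the gene as a whole and not for its deleted exons.

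The translation factor genes were abundant at both stages and in both genotypes. At 5 FPKM or more in all 4 libraries were 47 of the 53 (88.7%), against 27.8% of all genes, and 15 were among the 1000 genes with the highest mean. The median of the 49 measured genes was 70.7 FPKM in control and 75.0 in deletion oocytes at the growing stage, and 74.5 and 76.2 at the fully grown stage. Eef1a1, the main eEF1A gene, was the highest, at 724, 859.5, 684 and 729.7 FPKM. Every set of 4 values runs in this order: growing control, growing deletion, then the fully grown control and deletion libraries. FPKM is a share of each library, so less RNA of a gene and more RNA of others cannot be told apart, nor can fewer oocytes with a transcript and less of it in each. Reads that match several genes also bear on these levels, since 8 of the 53 share over 50% of their transcript at 95% identity with another annotated transcript. They are Eef1a1 (87.7%, with 13 other genes), Eif4a3 (95.7%), Eif3e (88.8%), Eif3m (87.7%), Eif3h (81.5%), Eef1g (72.0%), Eif4a1 (68.8%) and Eif3j (60.6%). Over 10% is shared by 24 of the 53, among them Eif1 (49.8%), Eef2 (43.5%), Eif2s2 (39.0%) and Eif2s3x (37.0%). The values of all 24 are uncertain for this reason, by an amount that was not tested.

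**Figure D1:**
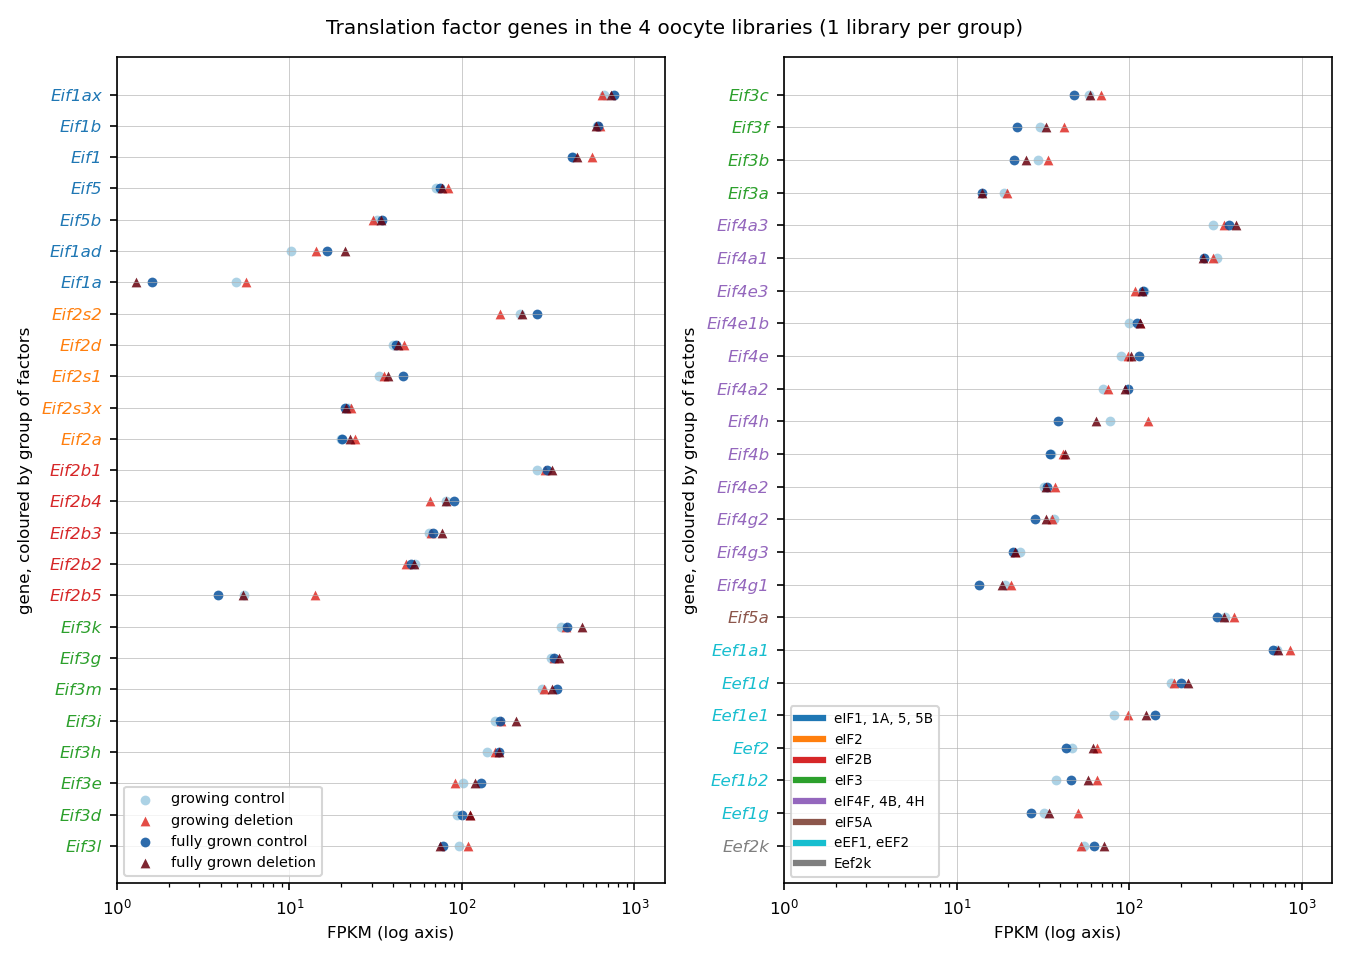
FPKM (log axis) of the 49 measured genes in each library, with circles for control and triangles for deletion libraries, pale for growing and dark for fully grown oocytes. Most genes have their 4 points close together, while Eif2b5, Eif4h, Eif1a and Eif1ad are spread.

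Among the genes of start codon selection, one member of each related pair or both were at very high levels. Eif1 and Eif1b encode near-identical eIF1 proteins, which hold the ribosome open for scanning. Eif1b stood at 606, 632, 617 and 599 FPKM and Eif1 at 442, 565, 434 and 467, so that Eif1 made 42.2%, 47.2%, 41.3% and 43.8% of their sum. The growing deletion library was the highest for Eif1, and the other 3 lay close together. eIF1A, which works with eIF1 at the decoding site, came almost wholly from the X-linked Eif1ax, at 669, 650.1, 764 and 732 FPKM.

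Its autosomal relative Eif1a (chromosome 18, plus strand, 46757357 to 46769879, mm9) was the measured gene with the lowest mean level and the lowest change over growth in either genotype. It stood at 4.90 and 5.61 FPKM in growing and at 1.61 and 1.29 in fully grown oocytes, control before deletion. Both fully grown libraries were thus lower than both growing libraries, at 32.8% of growing in control and 23.0% in deletion. Eif1ad, which encodes a protein with an eIF1A domain, went the other way with 10.2, 14.2, 16.5 and 20.9 FPKM, both fully grown libraries lying above both growing ones. Eif5, the GTPase activator of eIF2, stood at 70.7, 83.2, 74.5 and 76.2 FPKM. Eif5b stood at 32.2, 30.6, 34.3 and 34.1.

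The eIF2 complex has 3 subunits, and the levels of their mRNAs differed widely. The beta subunit gene Eif2s2 stood at 217, 166, 274 and 222 FPKM, below control in the deletion library at both stages and above growing at the end of growth in both genotypes. Its changes in deletion oocytes, -0.38 in growing and -0.30 in fully grown, were the lowest of the 49 genes at both stages. With the trend in GC content and length taken out, Eif2b4 was the lowest at both stages (-0.54 and -0.35), and Eif2s2 was at -0.27 and -0.13. The alpha subunit gene Eif2s1, which holds the serine phosphorylated under stress, stood at 33.2, 35.1, 45.4 and 37.4 FPKM. The gamma subunit came from the X-linked Eif2s3x at 21.8, 22.9, 21.0 and 21.4 FPKM. Its Y-linked copy Eif2s3y, which a female oocyte lacks, was at 0.0984, 0.0645, 0.266 and 0. Eif2a was lowest at 20.0 FPKM and Eif2d at 39.7, both in growing control; both encode factors of tRNA delivery apart from eIF2.

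The eIF2B exchange factor is built from 5 subunits, and Eif2b5, the gene of its catalytic epsilon subunit, stood apart from the rest. Eif2b5 (chromosome 16, plus strand, 20498889 to 20509398, mm9) stood at 5.47, 14.0, 3.85 and 5.41 FPKM. The growing deletion library was the high one, at 256% of its control, while the fully grown deletion library lay at 140.2% of its control and at the level of growing control. The change was 1.21 in growing and 0.40 in fully grown oocytes, so that the change with deletion differed by -0.81 between the stages, the widest such gap among the 49 genes. The other subunits were more abundant and closer together. Eif2b1, of the regulatory alpha subunit, stood at 272, 304, 312 and 332 FPKM and Eif2b3 at 64.0, 66.1, 68.4 and 76.6. Eif2b2 stood at 53.2, 47.3, 50.6 and 52.9. Eif2b4 stood at 81.0, 65.7, 90.3 and 80.8, lower in the deletion library at each stage. The highest of the 5 was 49.7, 21.7, 81.0 and 61.5 times the lowest in the 4 libraries, on the FPKM scale.

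eIF3 is the large scaffold that binds the small subunit, and 12 of its 13 subunit genes were measured. Eif3k was the highest, at 377, 401, 408 and 496 FPKM, and Eif3a, which encodes the largest subunit, the lowest at 18.8, 19.7, 14.0 and 14.1. Eif3g, at 326, 343, 342 and 365 FPKM, and Eif3m, at 293, 301, 355 and 332, were also high. Eif3f, a TOP gene, stood at 30.3, 41.9, 22.5 and 32.9 FPKM, above control in both deletion libraries and below growing in both fully grown ones. Eif3e, another TOP gene, showed the reverse at 101, 90.7, 128 and 119. Eif3l stood at 95.7, 109, 77.6 and 74.4, with both fully grown libraries below both growing ones, and so did Eif3b at 29.6, 33.9, 21.6 and 25.4. The remaining subunit genes Eif3c, Eif3d, Eif3h and Eif3i stood between 47.9 and 207 FPKM in all libraries. Eif3j was listed at 0.00380 FPKM or less, and its transcript shares sequence with 3 other genes.

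In the eIF4F group, the cap-binding eIF4E family was spread evenly over several genes. Eif4e3 stood at 122, 108, 119.7 and 119 FPKM, Eif4e1b, an oocyte form of eIF4E known for binding stored mRNA, at 99.6, 116, 112 and 115, and Eif4e itself at 89.8, 98.2, 113 and 102. Eif4e2, whose product competes at the cap, stood at 32.2, 37.4, 33.5 and 33.2. Eif4e1b thus held 29.0%, 32.3%, 29.5% and 31.1% of the family sum. The scaffold genes were low. Eif4g2, of a form without the eIF4E site, stood at 36.9, 35.6, 28.6 and 33.1 FPKM, Eif4g3 at 23.4, 21.9, 21.4 and 21.7, and Eif4g1, the main form in most cells, at 19.1, 20.8, 13.5 and 18.4. Fully grown control was the lowest library for all 3 scaffold genes.

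The helicase genes differed by stage more than by genotype. Eif4a1 stood at 323, 306, 272 and 268 FPKM and Eif4a2 at 70.7, 75.0, 98.0 and 94.99. The share of Eif4a2 in their sum was 18.0% and 19.7% in growing and 26.5% and 26.2% in fully grown oocytes, so that the stages did not overlap. Eif4a3, which belongs to the exon junction complex and not to eIF4F, stood at 308, 353, 378 and 419. Eif4b, a TOP gene whose product helps the helicase, stood at 35.1, 41.5, 34.8 and 42.5 FPKM.

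Eif4h, the other helper of the helicase, differed by both genotype and stage. Eif4h (chromosome 5, minus strand, 135095745 to 135115198, mm9) stood at 77.5, 129, 38.5 and 64.0 FPKM. The deletion library was at 166.2% of control in growing and 166.1% in fully grown oocytes, changes of 0.73 and 0.72. The fully grown library was at 49.7% of growing in both genotypes, changes of -0.990 in control and -0.998 in deletion. No other measured member was past 0.5 above control at both stages, though Eef2 (0.48 and 0.52) and Eif3f (0.46 and 0.53) came close. The share of all genes past 0.5 at both stages was not computed. Its transcript shares no long stretch with another gene and overlaps none in the table. The search of its start window above found no run of C and T longer than 3.

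Most elongation factor genes were above control in the deletion libraries, by changes of at most 0.77. Eef1b2, of the exchange factor subunit eEF1B alpha, stood at 37.5, 64.9, 45.8 and 58.1 FPKM, above control at both stages. Eef1g, of the gamma subunit, stood at 32.1, 50.7, 27.1 and 34.4. Eef2 stood at 46.5, 65.2, 43.1 and 62.0, and its 2 deletion libraries lay above its 2 control libraries. Eef1d, of the delta subunit, stood at 176, 183, 201 and 219. Eef1e1, of a protein of the multi-synthetase complex that shares the eEF1 name, stood at 81.6, 98.6, 142 and 125, with both fully grown libraries above both growing ones. Of the 6 measured genes, 6 were above control in growing deletion oocytes, with a median change of 0.37, beside 57.1% of all genes and a median of 0.07. In fully grown oocytes 5 were, with a median of 0.23, beside 53.3% and 0.03. With the trend in GC content and length taken out the counts were 5 and 4. Eef1d lay below control at both stages once the trend with GC content and length was removed (-0.16 and -0.06). Eef2 and Eef1b2 hold small nucleolar RNA genes in their span (Snord37 and Snora41), and how strand and overlaps were handled is not given in the sources used here.

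For the remaining members, 1 form made nearly all of the family. Eif5a, whose hypusine-bearing product helps ribosomes past difficult stretches, stood at 358, 407, 322 and 354 FPKM, and Eif5a2 at 0.200, 0.368, 0.121 and 0.166. Eef1a2, the eEF1A form of muscle and nerve, was listed at 0 in all 4 libraries. Eef2k, the kinase that blocks eEF2 and is matched by the naming rule, stood at 54.9, 52.4, 62.4 and 72.0. The 4 members that did not reach 1 FPKM were Eef1a2, Eif2s3y, Eif3j and Eif5a2.

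Set against control, growing deletion oocytes had slightly higher values for most translation factor genes. Of the 49, 38 (77.6%) were above control by any amount, beside 57.1% of all 11806 genes at 1 FPKM or more. The median change was 0.15, beside 0.07 over all these genes, with quartiles of 0.04 and 0.24. With libraries rescaled by their median ratio 36 (73.5%) were above control, and with the trend in GC content and length taken out 37 (75.5%). By the rule of size used here, a change of at least 1 with 5 FPKM in 1 of the 2 libraries, 1 gene was higher, Eif2b5, and none lower, where 2.62% and 2.51% of 8010 genes were. At a change of 0.5, Eif2b5, Eef1b2, Eif4h and Eef1g were higher and none lower, beside 13.5% and 8.79%. That is 4 of 49 genes, a share below the background. The 49 are more abundant than most genes of the background, with a median of 77.2 for their mean FPKM. Shares, medians and correlations over all genes, here and elsewhere, were not matched for level. The changes were thus small and mostly of 1 sign, and 29 of 49 lay within 0.2 of 0.

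In fully grown deletion oocytes the tilt was weaker. Above control were 32 of the 49 (65.3%), beside 53.3% of all genes, with a median change of 0.09 beside 0.03. After rescaling the libraries by their median ratio, 26 (53.1%) were above control, with a median of 0.03, and with the trend in GC content and length taken out 36 (73.5%). Rescaling lowers the changes of other genes here too, with dividing factors of 1.014 for the deletion and 0.971 for the control library. The shares and medians over all genes, here and elsewhere, are those before rescaling or removal of the trend. No gene was past a change of 1, where 1.08% of 7413 genes were higher and 1.09% lower. At 0.5, Eif4h, Eif3f and Eef2 were higher and none lower, beside 9.19% and 6.97%. Within 0.2 of 0 lay 32 of the 49.

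The deletion comparisons at the 2 stages share no library. Above control at both stages were 28 of the 49 genes (57.1%), beside 37.8% of all genes, and below control at both were 7 (14.3%), beside 27%. With rescaled libraries these counts were 22 and 9, and with the trend in GC content and length taken out 31 and 7. The shares over all genes were not recomputed under either setting. Across the 49 genes the changes at the 2 stages had Pearson's r of 0.65 and Spearman's rho of 0.56, beside a rho of 0.40 over all measured genes. These correlations run across genes, which are not independent, and the changes share a trend with base composition. The genes behind the rho of 0.40 include many at lower levels than the 49.

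**Figure D2:**
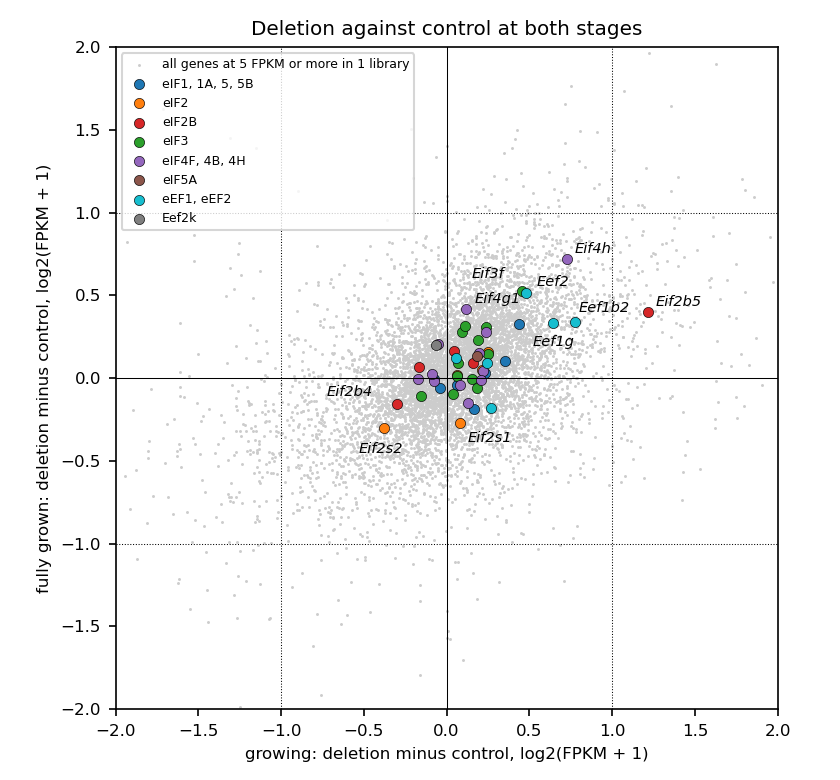
Change of each gene in deletion against control, as differences of log2(FPKM + 1), in growing (x axis) and fully grown oocytes (y axis), for the translation factor genes by group (coloured) and all genes at 5 FPKM or more in 1 library (grey; those past 2 are not drawn). Eif4h lies at 0.73 and 0.72, Eif2b5 at 1.21 and 0.40, and 28 of 49 translation factor genes are above 0 on both axes.

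The groups can be set side by side by their medians. In growing oocytes the median change was 0.37 for the elongation factors, 0.16 for start codon selection, 0.13 for eIF3, 0.12 for eIF4F and its helpers, 0.08 for eIF2 and 0.04 for eIF2B. In fully grown oocytes the medians were 0.23, -0.01, 0.12, 0.03, 0.02 and 0.09 in the same order. Rescaling put eIF2B at -0.0040 in growing oocytes, and eIF4F (-0.03) and eIF2 (-0.04) below 0 in fully grown oocytes, and taking out the GC and length trend put start codon selection above 0 (0.12) and eIF2 below it (-0.03). The 9 genes known as TOP mRNAs (Eef1a1, Eef1b2, Eef1d, Eef1g, Eef2, Eif3e, Eif3f, Eif3h and Eif4b) had medians of 0.25 in growing and 0.28 in fully grown oocytes, and the other 40 measured genes 0.11 and 0.05. This list overlaps the elongation factors in its Eef genes. Its other members were mixed, with changes of -0.15 and -0.11 for Eif3e, 0.15 and -0.01 for Eif3h, 0.24 and 0.28 for Eif4b, and 0.46 and 0.53 for Eif3f. Eef1a1, Eef1g, Eif3e and Eif3h also share over 50% of their transcript with others. Above control were 8 of the 9 and 7 of the 9, beside 57.1% and 53.3% of all genes, and 8 and 8 with the GC and length trend taken out. Without the GC and length trend the TOP medians were 0.25 and 0.23, beside 0.14 and 0.09 over all 49. The trend-free medians of the other 40 were not computed. The TOP list may be incomplete, and the 40 include Eif2b5, Eif2s3x, Eif3l and Eif4e, whose windows above held runs of 10 or more.

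Base composition moved with the deletion comparison. Over 8157 genes, Spearman's rho of the change with transcript GC content was 0.37 in growing and 0.41 in fully grown oocytes, and over the 49 translation factor genes 0.20 and 0.51. The median GC content of the 49 was 50.1%, close to 49.7% over all. Eif4h has 55.5% GC, and its change without the trend was 0.53 and 0.56 in place of 0.73 and 0.72. For Eef2, with 57.0% GC, it was 0.25 and 0.30 in place of 0.48 and 0.52. Eef1b2 (46.2% GC) went to 0.84 and 0.43, Eif2b5 (53.2%) to 1.10 and 0.31, and Eif2s2 (42.1%) to -0.27 and -0.13. Eif2b4 (56.8%) went from -0.30 and -0.16 to -0.54 and -0.35, and so past 0.5 below control in growing oocytes.

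**Figure D3:**
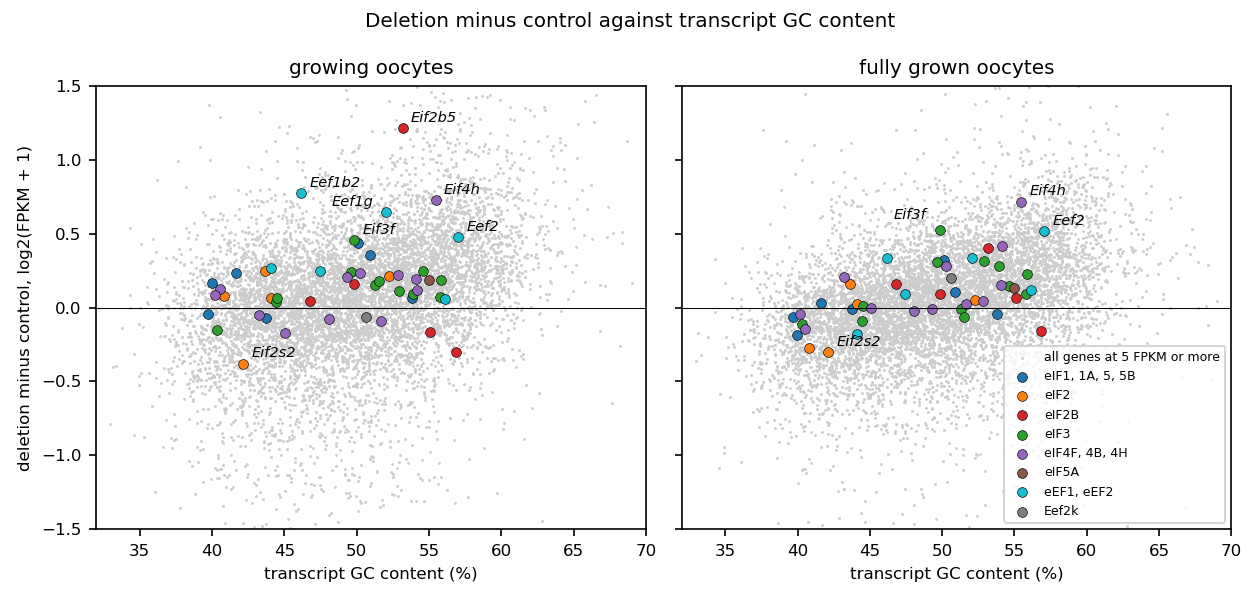
Change in deletion against control, as differences of log2(FPKM + 1), against the GC content of the transcript in percent, for growing (left) and fully grown oocytes (right), with translation factor genes coloured by group and all genes at 5 FPKM or more in grey. The grey cloud tilts upward with GC content (rho 0.37 and 0.41), and Eef1b2, at 46.2% GC, lies above its trend in growing oocytes.

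Over growth from the growing to the fully grown stage, the translation factor genes were divided between higher and lower values, while most genes in the table were lower. In controls 28 of the 49 (57.1%) were above the growing library, beside 39.3% of all genes, and 21 were below it, beside 60.4%. The median change was 0.06 beside -0.10. None was past a change of 1 with 5 FPKM, where 1.11% of 7661 genes were higher and 3.07% lower. Eif1a (-1.18) missed the rule only by its level of 4.90 FPKM, and Eif4h (-0.99) by its size. At 0.5, Eef1e1 (0.79) and Eif1ad (0.64) were higher and Eif4h lower, beside 5.13% and 14.1%.

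In deletion oocytes 24 of the 49 (49.0%) were above the growing library, beside 41.3% of all genes, and 25 were below it, beside 58.5%. The median was -0.01 beside -0.11. Past a change of 1, none was higher and 2 were lower, Eif1a (-1.53) and Eif2b5 (-1.23), where 2.7% of 7957 genes were higher and 8.75% lower. This comparison shares the growing deletion library with the one above, in which Eif2b5 was high. At 0.5, Eif1ad (0.52) was higher, and Eif1a, Eif2b5, Eif4h, Eef1g (-0.55) and Eif3l (-0.54) were lower, beside 10.9% and 22.4%.

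The growth comparisons of the 2 genotypes were made on different libraries. Higher at the fully grown stage in both genotypes were 21 of the 49 (42.9%), beside 27% of all genes, and lower in both were 18 (36.7%), beside 46.2%. Pearson's r across the 49 was 0.85 and Spearman's rho 0.81, beside a rho of 0.62 over all measured genes, again not matched for level. Over growth, too, the changes went with GC content, with a rho of -0.32 in control and -0.23 in deletion over all genes and -0.28 and -0.11 over the 49.

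**Figure D4:**
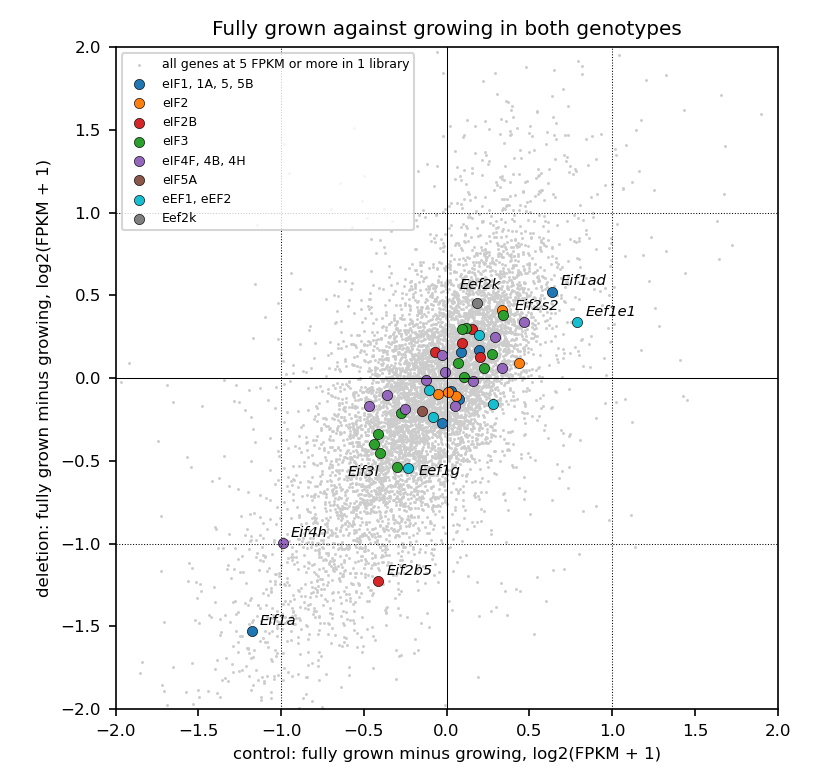
Change of each gene from the growing to the fully grown stage, as differences of log2(FPKM + 1), in control (x axis) and deletion oocytes (y axis), drawn as in the plot of deletion changes. Eif1a (-1.18 and -1.53) and Eif4h (-0.990 and -0.998) lie low in both genotypes, Eif1ad (0.64 and 0.52) lies high in both, and Eif2b5 (-0.41 and -1.23) is low mainly in deletion.

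Other genes of the pathway were taken from lists of regulators, other factors and mitochondrial factors. Of 23 regulator genes, 22 were measured. Above control in growing oocytes were 12 (54.5%, median 0.07), close to the 57.1% and 0.07 of all genes. In fully grown oocytes 17 were (77.3%, median 0.15), beside 53.3% and 0.03. Past a change of 1 in growing oocytes were 2 of the 21 at the minimum level, beside 2.62% of all genes, Mknk2, a kinase of eIF4E (3.79, 9.04, 1.97 and 3.54 FPKM), and Dohh, an enzyme that makes the hypusine of eIF5A (20.0, 44.8, 11.3 and 13.5 FPKM). None was past it in fully grown oocytes. Both genes were highest in the growing deletion library, as Eif2b5 was. Over growth none was past it in control, and in deletion oocytes Dohh (-1.66), Eif4ebp1 (-1.65), Mknk2 (-1.15) and Rptor (-1.03), of an mTOR complex subunit, were lower, beside 8.75% of all genes.

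The eIF4E-binding protein gene Eif4ebp1 was above control in growing (22.9 against 15.1 FPKM) and below it in fully grown deletion oocytes (6.58 against 10.3). Paip1, of a protein that ties poly(A)-binding protein to eIF3, was below control at both stages (151 against 223 and 233 against 328 FPKM). The eIF2 kinase genes were low apart from Eif2ak1, at 62.5, 54.1, 52.6 and 56.3 FPKM. Cpeb1, a regulator of stored mRNA in oocytes, stood at 214, 234, 207 and 211.

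All 14 genes of other factors of translation were measured, and 9 (64.3%) were above control in growing and 11 (78.6%) in fully grown oocytes, beside 57.1% and 53.3% of all genes. With rescaled libraries the counts were 7 and 8, with no rescaled share over all genes computed. None was past a change of 1 in either deletion comparison. Pabpc1, a TOP gene of the main poly(A)-binding protein, stood at 19.0, 36.8, 8.65 and 12.1 FPKM, above control at both stages and below growing in both genotypes. Pabpc1l, its oocyte form, was more abundant at 116, 116, 79.6 and 105.9. Eif6, which keeps the large subunit from joining too early, stood at 293, 268, 312 and 309. Over growth in control, 1 of the 13 genes at the minimum level was lower by a change of 1, Pabpc1 (-1.05), beside 3.07% of all genes. In deletion 2 of 14 were, Pabpc1 (-1.53) and Abce1 (-1.24), a ribosome recycling factor, beside 8.75%. Of the 9 factors of mitochondrial translation, 7 were above control in growing and 8 in fully grown oocytes, beside 57.1% and 53.3% of all genes. Their medians were 0.14 and 0.12, beside 0.07 and 0.03, rescaling gave 6 and 7 above control, and none was past a change of 1.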

How the data were processed

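Polyadenylated RNA of 4 libraries was amplified by Smart-seq2 and sequenced after Tn5 library preparation, per the labels. The deposited values are FPKM; per the submitters' processing notes, build mm9 was used with Cufflinks 2.2.1, Bowtie2 2.1.0, TopHat2 2.0.11 and CASAVA 1.8, with roles and gene models not given in the sources used here. All 4 sample tables were identical to the series table. Symbols and values of the deposited table run in different sort orders, so symbols in byte order were paired with value rows in file order, an inference from the values. This moves 19122 of 23235 rows. None of the 53 translation factor genes is moved, since they lie in a stretch of 435 rows that both orders share, but the other genes and shares over all genes rest on it. Changes are differences of log2(FPKM + 1), which shrinks the change of genes at low levels. Since a group is 1 library, no test was run, no interval is given, and total depth is not stated. The members and lists were chosen with earlier results of these data known. Genes are named by role, with values in all libraries for those past the size rule, the 12 most abundant, fixed paralog groups, eIF2B and the extremes of eIF3. Other members, such as Eif4h, Eif3f, Eif4b and the elongation factor genes, were given in full after their values were seen, as were the pathway genes with values. GC content and length came from the longest coding transcript of GENCODE M21, and their lowess trend over genes at 5 FPKM or more was removed with statsmodels 0.14.6. The removal was tried on simulated data with a linear GC trend only. No length trend was simulated, so that step was not tested. Shared stretches of at least 100 bases at 95% identity were found with BLAST 2.17.0. Relative depth is the most common ratio between libraries of values under 0.3 FPKM. Alternatives were a pseudocount of 0.1, median-ratio rescaling, the deposited pairing, removal of the trend, and other minimum levels.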

Additional observations from a re-analysis of the deposited data

How the results depend on the processing

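Of 80 recomputed values (16 results, each under 5 of 6 settings), 76 kept their direction and stayed within 0.1 (medians, log2) or 1.5 times (counts) of the value reported. Of the 76, the 16 under the deposited pairing and the 8 with members at 5 FPKM or more could not differ. Those settings leave the same genes with the same values, so these are no check of the results. The medians of 0.09, 0.06 and -0.01 are smaller in size than the 0.1 allowed. For these, a loss of most of their size still counts as kept. In fully grown deletion oocytes, rescaling took the median from 0.09 to 0.03 and the count above control from 32 to 26. Both were counted as kept. With a pseudocount of 0.1, Eif4h was lower over growth in control oocytes by the size rule, 1 gene in place of 0, and with no minimum FPKM it was Eif1a, also 1 in place of 0. The count in deletion oocytes was 3 in place of 2 with a pseudocount of 0.1. The median change over growth in deletion oocytes, -0.01, was 0.0089 with libraries rescaled by median ratio and 0.0020 with the trend in GC content and length taken out. The cause was not tested. The pairing as deposited gave the same values for these genes. No paired analysis was possible because each group holds 1 library, which leaves no replicate numbers to pair. A fit with genotype and stage as additive terms was not run. A single library limits every difference, and Eif2b5 and Eif1a, at 14.0 FPKM or less in every library, were the lowest measured genes by mean FPKM.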
